A study of Homo sapiens with 6 samples.

Results

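The unfolded protein response genes of the endoplasmic reticulum (ER) were examined in H9 cells, a T cell lymphoma line, upon antagonism of CDK9. The 10 genes were chosen by name among the 61541 genes of the count table: ERN1, EIF2AK3, ATF6, XBP1, HSPA5, HSP90B1, DNAJB9, HERPUD1, SEL1L and EDEM1. Each matched 1 row of the table. Bulk RNA-seq covered 6 libraries of H9 cells with the genotype given as WT. Of these, 3 were treated with the vehicle DMSO (no time is given on their labels) and 3 with AZD4573, a selective CDK9 inhibitor, for 4 h at 50 nM (the label and the figure legends give this time, and the paper's discussion a longer one). CDK9 phosphorylates RNA polymerase II and so promotes the elongation of transcripts, and the comparison asks which transcripts change upon its inhibition. All 6 libraries came from a single cell line, and nothing in the labels says whether replicates were separate cultures, so p-values measure only the spread between these libraries, which may be technical.

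The ER folds secreted and membrane proteins, and the unfolded protein response matches its capacity to their load. When unfolded proteins build up, the chaperone BiP leaves the luminal domains of the sensors IRE1α, PERK and ATF6. IRE1α is a kinase and endoribonuclease that removes a short intron from the XBP1 mRNA in the cytoplasm, PERK phosphorylates the translation factor eIF2α, and ATF6 is cut in the Golgi to free a transcription factor. Their targets include ER chaperones, BiP among them, and the machinery of ER-associated degradation (ERAD), which returns misfolded proteins to the cytosol for destruction by the proteasome. Lymphocytes are known to use the pathway when they become activated and secrete proteins.

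The ATF6 and XBP1 proteins act through short promoter elements, so the promoters that hold one are shown first. RefSeq promoters (GRCh38.p14) were found for 10 of the 10 genes, and the 250 bases upstream of each start were searched on both strands for exact matches. The ER stress response element (ERSE, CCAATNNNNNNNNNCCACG) was found in XBP1, HSPA5 and HSP90B1, and in 0.074% of 35116 promoters of the same length. The related ERSE-II (ATTGGNCCACG) was found in HERPUD1, and in 0.0513% of the promoters. No exact match was found in the other members, nor did any member hold the core of the unfolded protein response element (TGACGTGG, in 0.612% of promoters) or a composite C/EBP-ATF site (TGATGNAAT, in 0.888%). No sites of different motifs overlapped in the members. Each sequence below is given 5′ to 3′ in the direction of its gene, with the fixed letters of the match in capitals. The XBP1, HSPA5 and HERPUD1 windows start 250 bases upstream and stop before the first exon of any annotated transcript of the gene. For HSP90B1, an alternative transcript begins further upstream, and only the matches with 5 bases on each side are given.
XBP1 (chr22:28800598-28800819, minus strand): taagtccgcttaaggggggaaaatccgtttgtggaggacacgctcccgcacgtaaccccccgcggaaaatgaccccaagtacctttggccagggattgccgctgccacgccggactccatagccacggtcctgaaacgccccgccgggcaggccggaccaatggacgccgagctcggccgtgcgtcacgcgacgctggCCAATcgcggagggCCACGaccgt
HSPA5 (chr9:125241383-125241593, minus strand): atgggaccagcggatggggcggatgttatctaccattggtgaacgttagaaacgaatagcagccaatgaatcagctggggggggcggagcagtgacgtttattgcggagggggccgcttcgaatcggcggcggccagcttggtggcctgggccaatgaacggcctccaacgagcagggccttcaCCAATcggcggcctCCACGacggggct
HSP90B1, distal match (chr12:103930211-103930239, plus strand): cctgaCCAATcggaaggagCCACGcttcg
HSP90B1, proximal match, which reads on the opposite strand (chr12:103930316-103930344): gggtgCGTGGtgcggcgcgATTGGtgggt
HERPUD1 (chr16:56931892-56932141, plus strand): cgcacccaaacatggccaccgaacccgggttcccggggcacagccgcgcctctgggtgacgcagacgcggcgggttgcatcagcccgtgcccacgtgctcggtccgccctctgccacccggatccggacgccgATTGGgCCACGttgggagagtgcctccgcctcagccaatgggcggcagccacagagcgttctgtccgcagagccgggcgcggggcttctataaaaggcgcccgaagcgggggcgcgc

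The matches lay 52 to 34 bases upstream of the start in XBP1, 66 to 48 in HSPA5, 194 to 176 and 89 to 71 in HSP90B1, and 117 to 107 in HERPUD1. The other sequence of interest is the stretch of the XBP1 mRNA that IRE1α removes, because it sets what the counts of XBP1 can show. In GENCODE release 44 it is a 26-base intron at chr22:28796128-28796153 (GRCh38, minus strand), given here in capitals with 20 bases of exon on each side.
XBP1 intron (chr22:28796108-28796173): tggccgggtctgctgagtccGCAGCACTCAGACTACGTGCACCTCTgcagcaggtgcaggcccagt
Of 6 annotated XBP1 transcripts, 1 lacks these 26 bases and 3 hold them within the coding sequence. The bases gcagca stand both at the start of the intron and just after its end, so an alignment may place the gap a few bases away. For the same reason the capitals may not match the cut of IRE1α to the base. Counts per gene add the spliced and unspliced forms together, and the activity of IRE1α on XBP1 was therefore not measured here.

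The deposited values are RSEM expected counts in whole numbers, and library totals ranged from 70367303 to 76571157 with DMSO and from 52101868 to 63795185 with AZD4573. Values below are in CPM, a gene's counts relative to the library total after TMM scaling in edgeR. Differences were tested by quasi-likelihood in edgeR, and p-values were adjusted by the Benjamini-Hochberg (BH) method over the 17678 genes that passed the filter on low counts. All 10 members passed. The share of the 13 mRNAs transcribed by the polymerase of mitochondria was 3.13% ± 0.0929 in DMSO libraries and 4.85% ± 0.162 in AZD4573 libraries (SD, n = 3 each). Over all genes the median log2 fold change was 0.03 by TMM, -0.71 when libraries were scaled to these mRNAs, and -0.08 by library size alone. RNA per cell was not measured, and in bulk samples fewer cells of a type and less RNA per cell cannot be told apart. T-cell markers summed to 1757 to 1803 CPM with DMSO and 2252 to 2294 with AZD4573 (13 of 14 tested). Of the 13, 2 (CD28 and CD247) were lower at an adjusted p under 0.05, 9 higher and 2 neither. Among all genes tested, 37.4% were lower and 37.3% higher. TRBC1 rose most in CPM, from 263 ± 14.4 to 507 ± 7.32. When scaled to the mitochondrial mRNAs, TRBC1 and TRAC were 0.21 and 0.31 (log2 fold change), whereas LCK, CD3G and CD3D were -0.63, -0.55 and -0.29. By library size alone, CD3D, CD3E, CD3G and TRAC had 57.4 CPM or more in any library. On that scale CD4 had 3.77 to 7.05 CPM, CD7 0.307 to 0.752 and CD2 0.17 or less. B-cell and plasma-cell markers summed to 124 to 126.9 and 148.1 to 154.8 CPM (7 of 12 tested, PAX5 at 0.0392 or less by library size alone). Of these, CD79A went from 57.8 ± 2.96 to 93.6 ± 4.99 CPM while CD79B, MZB1 and IGKC fell by 0.71, 0.33 and 0.19 on the log2 scale. Myeloid markers summed to 0.344 to 0.505 and 1.16 to 2.16 CPM (3 of 9 tested, with FCGR3A and S100A8 at 0). MPO had 0 CPM in each DMSO library and 1.61, 1.04 and 0.672 CPM with AZD4573. CD14 rose from 0.0724 to 0.244 CPM, while ITGAM, at 0.254 and 0.178 CPM, did not pass the test. The part of these markers in the results below was not tested.

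Upon AZD4573 treatment, 7 of the 10 genes were lower at an adjusted p under 0.05, 2 were higher and 1 passed in neither direction. By that rule the shares among all genes tested were 37.4% lower and 37.3% higher. The genes that fell were EIF2AK3, ERN1, HSPA5, HERPUD1, XBP1, SEL1L and DNAJB9, those that rose were HSP90B1 and EDEM1 (both lower, with log2 fold changes of -0.36 and -0.33, when scaled to mitochondrial mRNAs), and ATF6 passed in neither direction. A fold change of at least 1.5 was reached by EIF2AK3, ERN1 and HSPA5, all lower, beside 23.7% of all genes lower and 22.7% higher by that rule. The groups did not overlap for 7 lower and 2 higher members, beside 38.7% and 39% of all genes. On the mitochondrial scale all 10 members were lower, beside 67.2% of all genes lower and 12.1% higher, and 8 were lower by a fold of at least 1.5, beside 53.4% of all genes. With TMM and a fold of at least 2, only EIF2AK3 was lower, beside 13.9% of all genes. Over the 10 genes the median log2 fold change was -0.28, beside 0.03 over all genes tested.

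**Figure D1:**
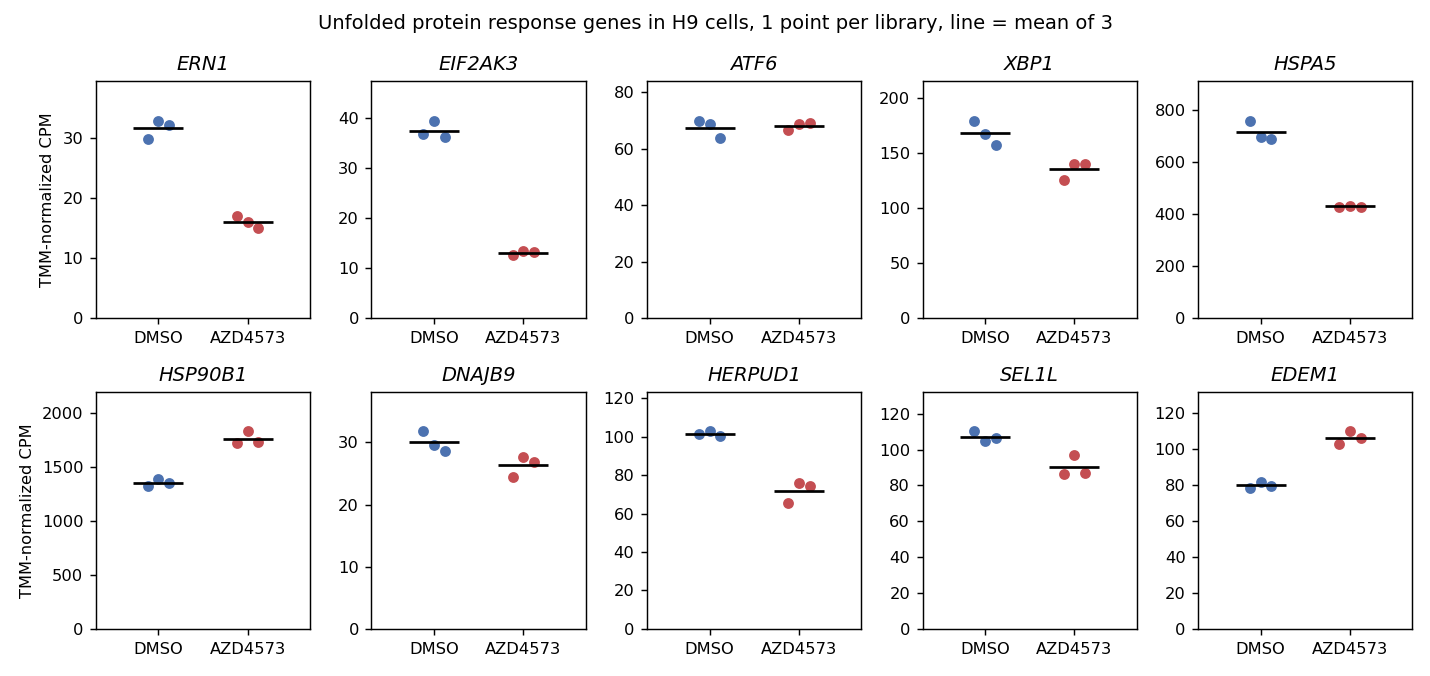
TMM-normalized CPM (vertical axes, each from 0) of the 10 unfolded protein response genes in 3 DMSO (blue) and 3 AZD4573 (red) libraries of H9 cells, with 1 point per library and a line at the mean. The points of the 2 groups stood apart for each gene except ATF6, by the largest fold for EIF2AK3 (37.4 against 12.98 CPM) and ERN1 (31.6 against 16.0 CPM), with HSP90B1 and EDEM1 higher in the AZD4573 libraries on this scale and lower when scaled to mitochondrial mRNAs.

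The sensors did not move together. EIF2AK3 encodes PERK, the kinase that slows translation under ER stress, and has 17 exons in its canonical transcript. Over all its annotated transcripts the gene spans 134.8 kb of chromosome 2 (chr2:88556741-88691518, minus strand). The promoter window that was searched (chr2:88627465-88627714) lies inside this span. EIF2AK3 levels were 36.6, 39.4 and 36.1 CPM with DMSO, against 12.5, 13.3 and 13.1 CPM upon treatment. Every AZD4573 library thus held well under the lowest DMSO value, and the spread within each group was small. The mean fell from 37.4 ± 1.78 to 12.98 ± 0.410 CPM (SD, n = 3 each), a log2 fold change of -1.52 (SE 0.0615, edgeR BH-adjusted p = 1.66e-10). This was the largest change among the 10 genes, and 6.3% of all genes tested had a lower log2 fold change. Antisense exons of ENSG00000225420 cover 17.2% of the transcript. No counts were found for that gene, which may have been absent from the count table. What its reads add to EIF2AK3 was not tested.

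ERN1, which encodes IRE1α, lies on chromosome 17 (chr17:64039080-64130819, minus strand, 22 exons over 91.7 kb). The DMSO libraries held 29.8, 32.9 and 32.1 CPM and the AZD4573 libraries 17.1, 16.0 and 15.0 CPM. No AZD4573 value came near a DMSO value. A fall from 31.6 ± 1.60 to 16.0 ± 1.03 CPM (SD, n = 3 each) was observed, with a log2 fold change of -0.98 (SE 0.0667, edgeR BH-adjusted p = 1.59e-08).

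ATF6, the sensor that is itself a transcription factor, has the longest locus of the 10, at 211.3 kb on chromosome 1 (chr1:161766298-161977574, plus strand, 16 exons). It was measured at 70.0, 68.6 and 63.9 CPM with DMSO and at 66.7, 68.8 and 69.1 CPM with AZD4573. The AZD4573 values fell inside the range of the DMSO values. Means were 67.5 ± 3.17 and 68.2 ± 1.303 CPM (SD, n = 3 each), and the log2 fold change of 0.01 (SE 0.0489, edgeR BH-adjusted p = 0.793) had a 95% interval from -0.09 to 0.12. With the mitochondrial scaling ATF6 was lower, at -0.73 (edgeR BH-adjusted p = 3.38e-08), close to the median of all genes on that scale.

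XBP1, the transcription factor downstream of IRE1α, lies on chromosome 22 (chr22:28794555-28800597, minus strand). Its counts gave 179.5, 167 and 157 CPM with DMSO and 126, 140.4 and 140.1 CPM with AZD4573. The lowest DMSO library remained above the highest AZD4573 library, by a gap smaller than the range within the DMSO group. Total XBP1 mRNA fell from 168 ± 11.1 to 135 ± 8.34 CPM (SD, n = 3 each), with a log2 fold change of -0.31 (SE 0.0569, edgeR BH-adjusted p = 0.000234).

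HSPA5 and HSP90B1, the most abundant chaperones of the ER lumen among the members, changed in opposite directions when scaled by TMM, whereas both were lower when scaled to mitochondrial mRNAs. HSPA5 encodes BiP, the Hsp70 chaperone that also holds the sensors inactive (chr9:125234853-125241382, minus strand, 8 exons). DMSO libraries held 759, 695 and 688 CPM, and AZD4573 libraries 428, 433 and 428 CPM. The AZD4573 values lay close together and far below each DMSO value. HSPA5 fell from 714 ± 39.4 to 430 ± 2.62 CPM (SD, n = 3 each), a log2 fold change of -0.73 (SE 0.0456, edgeR BH-adjusted p = 6.69e-09).

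HSP90B1 encodes GRP94, the Hsp90 chaperone of the ER that folds integrins and Toll-like receptors (chr12:103930107-103953931, plus strand, 18 exons). Its values were 1321, 1386 and 1352 CPM with DMSO and 1719, 1831 and 1734 CPM with AZD4573. All AZD4573 values were above all DMSO values. The mean went from 1353 ± 32.6 to 1762 ± 61.0 CPM (SD, n = 3 each), a log2 fold change of 0.38 (SE 0.0433, edgeR BH-adjusted p = 2.76e-06), which became -0.36 (edgeR BH-adjusted p = 9.15e-06) with the mitochondrial scaling. Exons of UQCC6 (antisense) and MIR3652 share 14.8% of the HSP90B1 transcript, and RSEM's default settings ignore strand. The larger of these held at most 937 counts in a library, beside 87493 to 105836 HSP90B1 counts per library.

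DNAJB9 encodes ERdj4, a J-domain partner of BiP that keeps IRE1α in check, from a locus of 5.0 kb (chr7:108569867-108574850, plus strand). It had 31.8, 29.6 and 28.7 CPM with DMSO and 24.4, 27.7 and 26.8 CPM with AZD4573. The groups came close but did not overlap. DNAJB9 had the smallest change that passed the test, from 30.0 ± 1.62 to 26.3 ± 1.68 CPM (SD, n = 3 each), with a log2 fold change of -0.19 (SE 0.0645, edgeR BH-adjusted p = 0.0172). Over all alternatives, its highest edgeR or DESeq2 BH-adjusted p was 0.0497.

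The members of ERAD also differed in direction on the TMM scale. HERPUD1, a membrane protein that organizes the HRD1 ubiquitin ligase complex (chr16:56932142-56944864, plus strand, 8 exons), had 101, 103 and 100.1 CPM with DMSO and 65.7, 75.8 and 74.1 CPM with AZD4573. AZD4573 replicate 1 was the lowest library, and all 3 lay below the DMSO range. It fell from 101 ± 1.32 to 71.9 ± 5.43 CPM (SD, n = 3 each), a log2 fold change of -0.50 (SE 0.0544, edgeR BH-adjusted p = 1.92e-06).

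SEL1L is the adaptor that joins substrates to the HRD1 ligase (chr14:81471547-81533853, minus strand, 21 exons). Its values were 110.2, 105 and 106 CPM with DMSO and 86.4, 96.7 and 86.9 CPM with AZD4573, so that AZD4573 replicate 2 stood nearest to the DMSO libraries without reaching them. SEL1L fell from 107 ± 2.84 to 90.0 ± 5.81 CPM (SD, n = 3 each), with a log2 fold change of -0.25 (SE 0.0513, edgeR BH-adjusted p = 0.000607).

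EDEM1, a mannosidase-like protein that marks misfolded glycoproteins for removal, lies on chromosome 3 (chr3:5187646-5219958, plus strand, 12 exons). It had 78.0, 81.4 and 79.4 CPM with DMSO and 103, 109.6 and 106 CPM with AZD4573. The groups stood clear of each other, with AZD4573 higher. The change from 79.6 ± 1.72 to 106 ± 3.52 CPM (SD, n = 3 each) gave a log2 fold change of 0.41 (SE 0.0445, edgeR BH-adjusted p = 1.57e-06) and -0.33 (edgeR BH-adjusted p = 9.31e-05) with the mitochondrial scaling. Antisense exons of ENSG00000268509 share 9.68% of the EDEM1 transcript. That gene held at most 158 counts in a library, beside 5222 to 6451 EDEM1 counts per library.

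**Figure D2:**
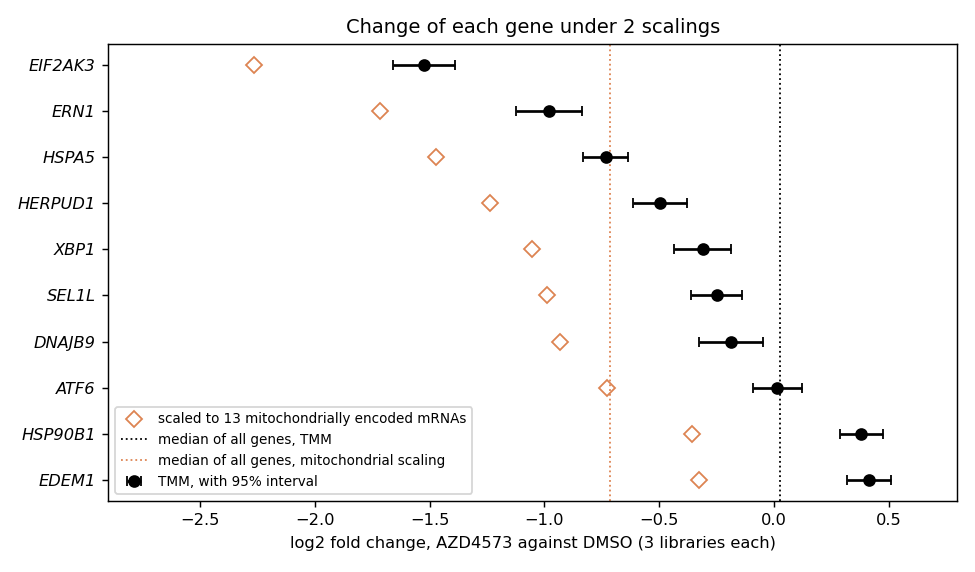
Log2 fold change of each gene, AZD4573 against DMSO (horizontal axis, 3 libraries each), with TMM (black points, bars are 95% intervals) and with scaling to 13 mitochondrial mRNAs (open diamonds). Dotted lines mark the median of all genes under each scaling, 0.03 and -0.71, and the order of the genes and their distance from those lines are alike under both, from EIF2AK3 (-1.52 and -2.27) to EDEM1 (0.41 and -0.33).

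Because the scaling shifts all genes alike, the members were also set against the median of all genes tested. Relative to it, the log2 fold change of EIF2AK3 was -1.55 with either scaling, and that of ERN1 was -1.006 with TMM and -1.004 with the mitochondrial scaling. HSPA5 was at -0.76 with both. HSP90B1 lay at 0.35 and EDEM1 at 0.39 above the median with both scalings, and ATF6 at -0.01. HSP90B1 and EDEM1 thus stood above the median gene and ATF6 beside it, though all 10 members were lower than with DMSO on the mitochondrial scale. That the 2 scalings give the same distances follows from the uniform shift. By TMM, 66.5% of all genes tested had a lower log2 fold change than HSP90B1, and 67.9% than EDEM1.

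Levels between genes were compared per kilobase (kb) of the canonical transcript. HSP90B1 had the highest level in the DMSO libraries, at 486 ± 11.7 CPM per kb, followed by HSPA5 at 182 ± 10.1 and XBP1 at 93.8 ± 6.22 (SD, n = 3 each). HERPUD1 came next at 35.5 ± 0.463 CPM per kb. SEL1L (13.2 to 13.9 CPM per kb), EDEM1 (12.8 to 13.3) and DNAJB9 (11.9 to 13.2) followed, and as neighbours in this order their ranges overlapped. ATF6 (8.56 to 9.37 CPM per kb) and EIF2AK3 (7.95 to 8.68) overlapped too, and ERN1 was lowest at 4.00 ± 0.203. With AZD4573 the order of the upper 4 was kept, EDEM1 at 17.3 ± 0.575 CPM per kb stood above SEL1L at 11.4 ± 0.733, and EIF2AK3 at 2.86 ± 0.0903 was 2.76 to 2.93 in all libraries, below ATF6 at 9.13 ± 0.174. The sensors were thus the least abundant members, and ATF6 stood clear above the other sensors in the AZD4573 libraries.

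Ratios of counts within a library do not depend on the scaling, and were chosen for display after the values were seen. HSP90B1 had 1.74, 1.99 and 1.97 counts per HSPA5 count with DMSO, against 4.02, 4.23 and 4.05 upon treatment. The ratio was 2.16 times higher upon treatment, with no overlap. The exact two-sided permutation p was 0.1, the smallest that 3 against 3 libraries can give (0.113 after BH adjustment over the 9 ratios computed), for this ratio and for each of the others except SYVN1 to SEL1L. ATF6 to EIF2AK3 went from 1.81 ± 0.0896 to 5.26 ± 0.0766 (SD, n = 3 each), and ATF6 to ERN1 from 2.14 ± 0.184 to 4.27 ± 0.347. ERN1 to EIF2AK3 went from 0.846 ± 0.0391 to 1.24 ± 0.114, again without overlap. These differences in proportion are a description, since no ratio could pass the test.

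**Figure D3:**
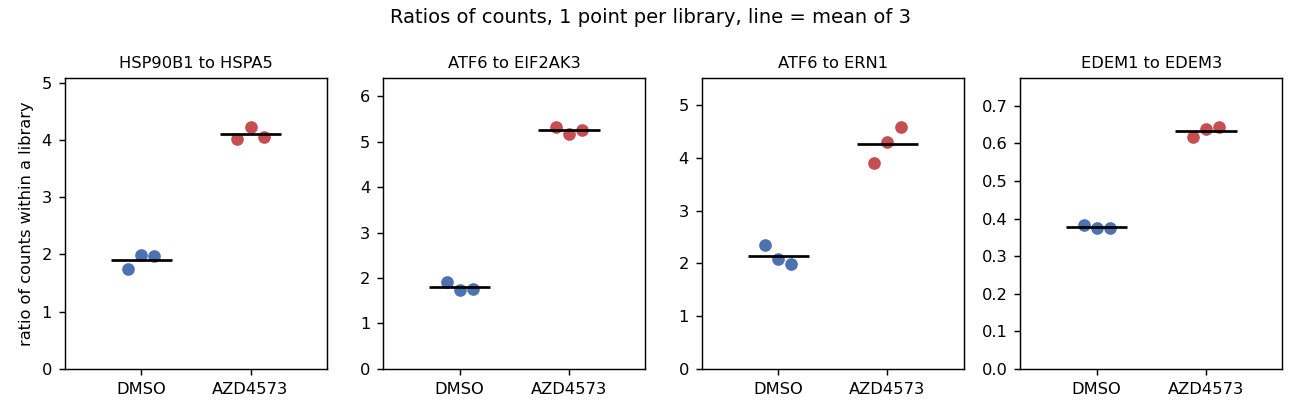
Ratios of the counts of 2 genes within a library (vertical axes from 0, not corrected for transcript length), 1 point per library, line at the mean of 3. All 4 ratios were higher in each AZD4573 library (red) than in each DMSO library (blue), from 1.90 to 4.10 for HSP90B1 to HSPA5 and from 0.377 to 0.634 for EDEM1 to EDEM3.

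The genes that share a promoter match with the members did not share a direction. The ERSE shown above stands in HSPA5 and XBP1, which fell, and at 2 places in HSP90B1, which rose on the TMM scale and was lower on the mitochondrial scale. An ERSE match in the 250 bases was held by 16 tested genes, these 3 members included. Of them 8 were lower (50%, beside 37.4% of all genes) and 5 higher (31.2%, beside 37.3%), with a median log2 fold change of -0.15. Named for this match, the list genes were CALR at -0.38, CANX at 0.29 (-0.45 with the mitochondrial scaling), CRELD2 at 0.53 (-0.21 with the mitochondrial scaling), ERO1B at -0.72 and ALG12 at -0.24, each past the test, while PDIA6 at 0.12 did not pass it (edgeR BH-adjusted p = 0.0545). ERSE-II, shown for HERPUD1, was matched in 15 tested genes, HERPUD1 included. Of these, 6 were lower (40%) and 5 higher (33.3%), near the shares of all genes. A match describes the letters only, and binding of ATF6 or XBP1 was not measured.

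The relatives and partners of the members were examined next. They were named for their family, with their values already known. EIF2AK3 is 1 of 4 kinases that phosphorylate eIF2α, each of which answers another stress. EIF2AK2 (PKR, for double-stranded RNA) fell from 115 ± 2.36 to 95.9 ± 3.16 CPM, a log2 fold change of -0.26 (edgeR BH-adjusted p = 0.000125), as did EIF2AK3. EIF2AK1 (HRI, for haem) was 0.22 and EIF2AK4 (GCN2, for amino acids) 0.34, both past the test, whereas they were -0.51 and -0.41 with the mitochondrial scaling. EIF2AK3 thus had the lowest log2 fold change of the family under either scaling, though the difference between kinases was not tested.

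ATF6B, the paralogue of ATF6, was 0.54 with TMM and -0.20 with the mitochondrial scaling, and its ratio to ATF6 went from 1.28 ± 0.0843 to 1.84 ± 0.0600 (SD, n = 3 each). The proteases that release ATF6 both fell, MBTPS1 by 0.22 and MBTPS2 by 0.65 on the log2 scale. EDEM2 and EDEM3 fell by 0.23 and 0.33, whereas EDEM1 rose on the TMM scale and was lower on the mitochondrial scale. Within the EDEM family, the ratio of EDEM1 to EDEM3 was 1.68 times as high with AZD4573, without overlap and independent of the scaling. SYVN1, the HRD1 ligase itself, fell by 0.46 on the log2 scale, and its ratio to SEL1L did not separate the groups (0.376 ± 0.0512 and 0.326 ± 0.0235, exact two-sided permutation p = 0.3). HERPUD2 fell by 0.21, and its ratio to HERPUD1 went from 0.238 ± 0.00609 to 0.292 ± 0.0414 (SD, n = 3 each) without overlap. Of the J-domain partners of BiP, DNAJB11 and DNAJC3 fell by 0.40 and 0.29, while DNAJC10 was 0.16 (-0.58 with the mitochondrial scaling).

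**Figure D4:**
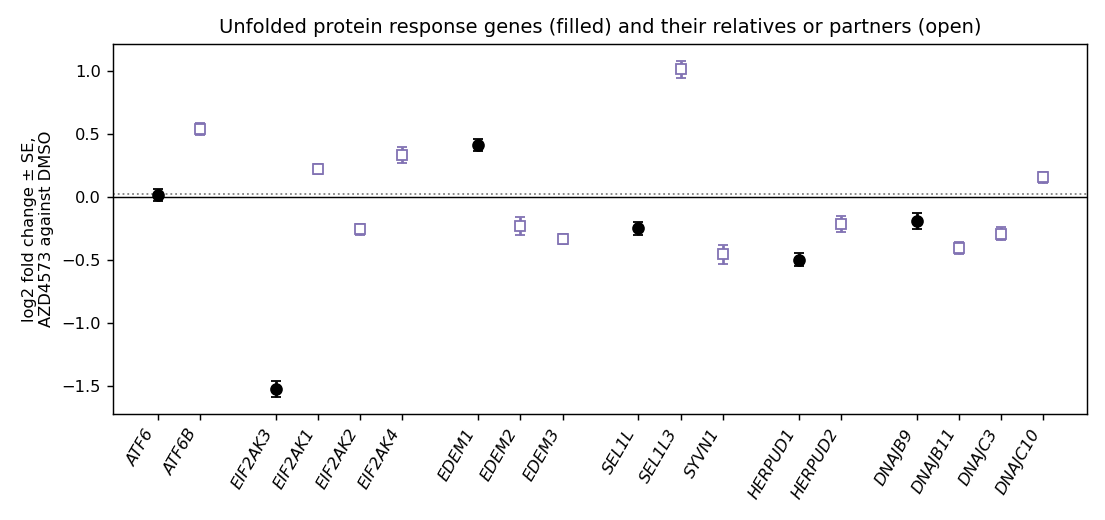
Log2 fold change with its SE on the TMM scale (vertical axis, 3 libraries per group) for members (filled) and their relatives or partners (open). EIF2AK3 at -1.52 stood far below the related eIF2α kinases, which ranged from -0.26 to 0.34, and EDEM1 at 0.41 stood above EDEM2 and EDEM3. With the mitochondrial scaling ATF6B, EIF2AK1, EIF2AK4, EDEM1 and DNAJC10 were below 0. The dotted line marks the median of all genes, 0.03.

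The wider pathway was described with 10 lists of genes that exclude the members. Of 244 genes listed, 235 were tested, of which 115 were lower (48.9%) and 80 higher (34%), with a median log2 fold change of -0.12. Among all genes tested, 37.4% were lower and 37.3% higher, with a median of 0.03, and each list below is to be set beside these shares. Over all genes, 6596 of 17678 were higher here, 5741 with library size only and 6904 of 31323 with no filter. Without DMSO replicate 2 or 3, 6261 of 18124 and 6367 of 18095 were higher. Without AZD4573 replicate 2 or 3, 6270 of 18208 and 6241 of 18234 were higher. With the mitochondrial scaling, from 0 to 2 genes were higher in each list, where 12.1% of all genes were higher and 67.2% lower. Among 17 sensors and signalling partners, 10 were lower and 5 higher, with a median of -0.19. NFYA, a subunit of the NF-Y factor that binds the CCAAT part of the ERSE, fell from 55.2 ± 1.18 to 25.2 ± 0.783 CPM (log2 fold change -1.13). CREB3L4, an ER-anchored transcription factor, rose from 2.86 ± 0.411 to 5.64 ± 0.192 CPM (0.98, and 0.24 without passing the test on the mitochondrial scale). TMBIM6, a calcium channel-like regulator of IRE1α, had the highest level and was 0.57 (-0.17 with the mitochondrial scaling).

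Of 13 tested genes of the PERK branch and the targets of ATF4, 8 were lower and 3 higher, with a median of -0.39. DDIT3, which encodes the transcription factor CHOP, had 11.9, 11.3 and 11.3 CPM with DMSO and 0.747, 0.597 and 0.557 CPM with AZD4573, a log2 fold change of -4.19 (SE 0.127, edgeR BH-adjusted p = 2.44e-11). The AZD4573 values were far below each DMSO value, though above the 0.0392 to 0.0576 CPM that 3 counts of a library make up. PPP1R15A (GADD34), the phosphatase subunit that reverses the action of PERK, fell from 47.3 ± 1.15 to 21.9 ± 1.11 CPM (-1.11). ATF4 itself was at 240 ± 10.7 and 222 ± 4.75 CPM (-0.11, edgeR BH-adjusted p = 0.0358), and its groups overlapped. DDIT4, an inhibitor of mTORC1, was the most abundant of the list and fell by 0.31 on the log2 scale. VLDLR, a lipoprotein receptor, rose from 5.30 ± 0.277 to 10.5 ± 1.16 CPM (0.98). ASNS (asparagine synthetase) and TRIB3 (a pseudokinase that restrains ATF4) were 0.86 and 0.71 with TMM, but 0.12 and -0.03 with the mitochondrial scaling, where neither passed the test. PPP1R15A, ATF4, ASNS and TRIB3 were named after their values were seen.

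ER chaperones other than the members were divided, with 10 of 25 lower and 12 higher (median 0.10), and with 22 lower and 0 higher on the mitochondrial scale. CALR (calreticulin, a lectin chaperone) had the highest level and fell from 835 ± 34.4 to 640.0 ± 4.24 CPM (-0.38). TOR1B, an ATPase of the torsin family, showed the largest fall, from 26.7 ± 0.328 to 10.4 ± 1.07 CPM (-1.36). FKBP10, a prolyl isomerase of collagen folding, rose from 0.837 ± 0.126 to 1.67 ± 0.0185 CPM (0.995, and 0.26 without passing the test on the mitochondrial scale). The disulphide-forming enzymes had 8 of 21 genes in each direction (38.1%, median 0), near the shares of all genes. P4HB, the protein disulphide isomerase, was 0.25 (-0.49 with the mitochondrial scaling). ERO1B, an oxidase that recharges it, fell by 0.72 and ERP27, a non-catalytic relative, rose from 1.39 ± 0.196 to 9.29 ± 0.490 CPM (2.74, and 2.002 with the mitochondrial scaling).

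In ERAD, 19 of 34 tested genes were lower and 11 higher (median -0.19), and 7 were higher without DMSO replicate 2 or with library size only. RNF139, an ER ubiquitin ligase, fell from 32.4 ± 1.90 to 18.0 ± 1.33 CPM (-0.85). SEL1L3, a relative of SEL1L, rose from 9.17 ± 0.335 to 18.5 ± 0.467 CPM (1.01, and 0.27 with the mitochondrial scaling), whereas SEL1L fell. GANAB, the catalytic subunit of glucosidase II, was 0.44 (-0.30 with the mitochondrial scaling). Of the translocon and signal peptide list, 15 of 30 were lower and 8 higher (median -0.085), but 5 were higher without DMSO replicate 2 or 3, with library size only or with no filter. SRPRB, the membrane anchor of the signal recognition particle receptor, fell from 112 ± 8.05 to 34.0 ± 5.06 CPM (-1.72). SSR4 was 0.53 (-0.21 with the mitochondrial scaling), and SEC61A1, the channel itself, did not pass the test (0.10, edgeR BH-adjusted p = 0.062).

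For the synthesis and transfer of N-glycans, 16 of 29 were lower and 8 higher (median -0.19), but 5 were higher without AZD4573 replicate 2, with library size only or with no filter. DOLPP1, which recycles the dolichol carrier, fell from 37.5 ± 2.63 to 5.69 ± 0.512 CPM (-2.72), the second largest fall among the genes that the rule named from the lists. DDOST and DPM3 were 0.34 and 0.54 (-0.40 and -0.20 with the mitochondrial scaling). Of the genes for transport out of the ER, 16 of 32 were lower and 11 higher (median -0.11). PREB, the exchange factor that starts COPII coat assembly, fell from 87.7 ± 1.39 to 33.3 ± 3.11 CPM (-1.40). SEC31B, of the outer COPII coat, rose from 190 ± 26.2 to 336 ± 9.01 CPM (0.82, and 0.08 without passing the test on the mitochondrial scale), and the cargo receptor LMAN1 was 0.20 (-0.54 with the mitochondrial scaling).

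Genes of ER-phagy and of UFM1 conjugation were 6 of 15 lower (40%) and 5 higher (33.3%), near the shares of all genes, with a median of -0.003. The higher count was 3 without DMSO replicate 2 or 3, without AZD4573 replicate 3, with library size only or with no filter. ODR4, a partner of the UFM1 protease, fell from 19.8 ± 0.713 to 6.32 ± 1.22 CPM (-1.65). CALCOCO1, an ER-phagy receptor, rose from 20.7 ± 0.252 to 49.0 ± 3.62 CPM (1.25, and 0.51 with the mitochondrial scaling), and CDK5RAP3, of the UFM1 ligase, was 0.57 (-0.16 with the mitochondrial scaling). In the list of ER calcium stores, 7 of 19 were lower (36.8%) and 9 higher (47.4%), with a median of -0.03. RCN1, a calcium-binding protein of the lumen, fell from 57.6 ± 2.08 to 24.1 ± 1.49 CPM (-1.26). ATP2A1, the SERCA1 pump, rose from 7.15 ± 1.17 to 26.3 ± 1.89 CPM (1.88, and 1.14 with the mitochondrial scaling), and ORAI2, a channel of the plasma membrane that opens when stores are empty, fell by 0.21 on the log2 scale.

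**Figure D5:**
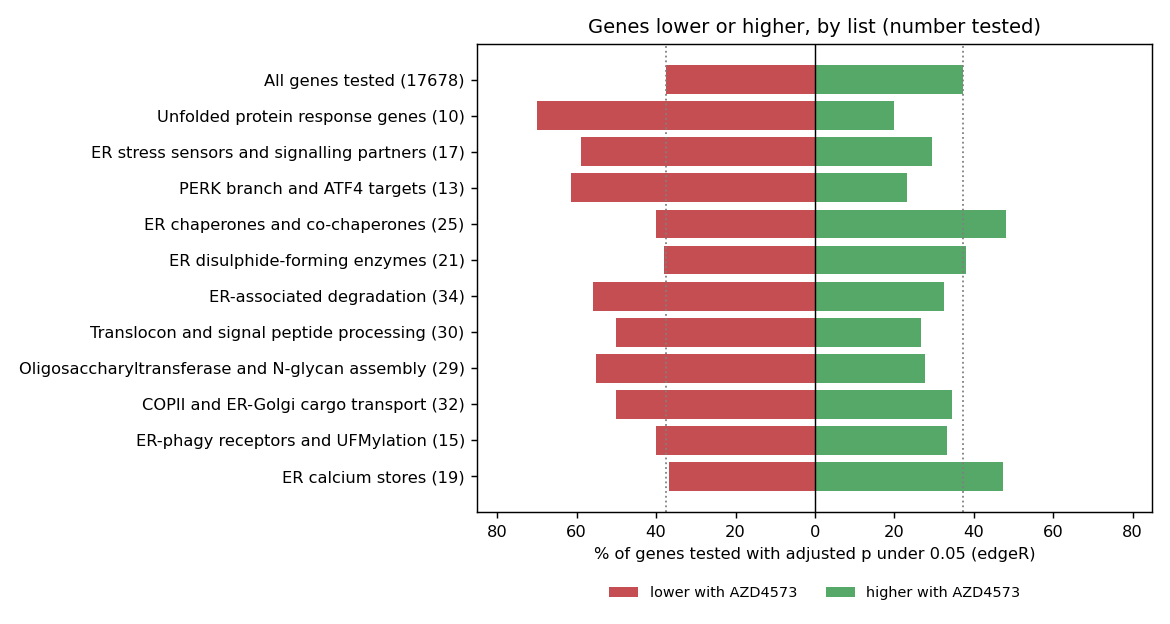
Share of tested genes (horizontal axis, %) that were lower (red, left) or higher (green, right) in the AZD4573 libraries at an edgeR adjusted p under 0.05, for all genes, the 10 unfolded protein response genes and 10 lists, with dotted lines at the shares of all genes (37.4% and 37.3%). The lower share was largest for the members (7 of 10) and next for the PERK list (61.5%). The chaperone list had 40% lower and 48% higher on the TMM scale, and 22 genes lower and 0 higher on the mitochondrial scale. On the mitochondrial scale 67.2% of all genes were lower and 12.1% higher, and the other lists also had more genes lower.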

How the data were processed

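Bulk RNA-seq of H9 cells covered 3 DMSO and 3 AZD4573 libraries, grouped by their labels. The authors' methods name Cutadapt 2.3 for trimming and STAR 2.7.8a for alignment to the ENSEMBL GRCh38 genome. They deposited expected counts per gene from RSEM 1.3.3 at its default settings, which ignore strand. These are whole numbers and unnormalized. Selection of poly(A) RNA is given by the labels, and rRNA depletion by the supplemental methods. Counts of the 17678 genes that passed filterByExpr (minimum count 10) were compared in R 4.3.3 with edgeR 4.0.16 (TMM, quasi-likelihood test, Benjamini-Hochberg adjustment). SE is the log2 fold change divided by the square root of F, and floors of 3 counts cover counting error only. In simulated counts with 200 changed genes, as many raised as lowered, edgeR recovered 195, with 12 false calls. Far more genes passed the test in the real data, so the simulation does not test the choice of scaling. Counts of any 2 libraries of a group differed beyond sampling noise (chi-square over its degrees of freedom, 4.29 to 14.1), so none was treated as a copy.

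The members and lists were chosen with earlier results of these data known. Besides the members, the rule named from each list the gene with the highest level, and the largest fall and rise. The last 2 needed an adjusted p under 0.05, groups without overlap and a mean of 1 CPM or more in either group. Of the genes listed, 1 had no match in the table. Alternatives to this were RLE or library-size scaling, scaling to 13 mitochondrial mRNAs, no filter, at least 10 counts in every library, a replicate block, DESeq2 1.42.0, each library left out and a fold change of at least 2. Positions and transcripts came from GENCODE release 44, and promoters from RefSeq.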

Additional observations from a re-analysis of the deposited data

How the results depend on the processing

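The counts of members lower (7) and higher (2) held under each alternative except scaling to the mitochondrial mRNAs, which gave 10 lower and 0 higher (67.2% and 12.1% of all genes). With a fold change of at least 1.5, 3 members were lower in the main comparison. That count was 4 with library size only (4766 of the 17678 genes tested) and 8 with the mitochondrial scaling (53.4% of all genes). At a fold change of at least 2 in the main comparison it was 1 (13.9% of all genes). Reversed log2 fold changes were found for ATF6 at -0.0893 with library size only, -0.7251 with the mitochondrial scaling and -0.0274 without a filter, and leaving out 1 library at a time it ranged from -0.0352 (without DMSO replicate 3) to 0.0313 (without DMSO replicate 1). The mitochondrial scaling also reversed HSP90B1 (-0.36), EDEM1 (-0.33), TMBIM6 (-0.17), P4HB (-0.49), GANAB (-0.30), SEC61A1 (-0.64), SSR4 (-0.21), DDOST (-0.40), DPM3 (-0.20), LMAN1 (-0.54) and CDK5RAP3 (-0.16), and library size only reversed SEC61A1 (-0.00874). On the mitochondrial scale CREB3L4, FKBP10 and SEC31B no longer passed the test. By construction the mitochondrial scaling shifts all genes alike. Under it the lists had, lower and higher, 16 and 0 (sensors and partners), 22 and 0 (chaperones), 17 and 2 (disulphide), 32 and 1 (ERAD), 30 and 0 (translocon), 28 and 0 (N-glycan), 30 and 0 (COPII), 14 and 1 (ER-phagy), 14 and 2 (calcium), and 1 higher in the PERK list. With library size only, genes higher were 7 in ERAD, 5 each in translocon and N-glycan and 3 in ER-phagy (5741 of 17678 over all genes). Without a filter they were 5, 5 and 3 in the last 3 of these (6904 of 31323 over all genes). Leaving out 1 library at a time, genes higher ranged from 7 to 10 in ERAD (lowest without DMSO replicate 2), from 5 to 10 in translocon (lowest without DMSO replicate 2 or 3), from 5 to 8 in N-glycan (lowest without AZD4573 replicate 2) and from 3 to 5 in ER-phagy (lowest without DMSO replicate 2 or 3 or AZD4573 replicate 3). Over all genes, the number higher was 6596 of 17678 in the main comparison. With 1 library left out it ranged from 6241 of 18234 (without AZD4573 replicate 3) to 6577 of 18209 (without AZD4573 replicate 1). The cause of these changes in the list counts was not tested. Same-numbered libraries did not deviate together over all genes tested (correlations -0.0208, 0.0417 and 0.0316), so no pairing by number was seen. Each deviation was from a mean of 3 libraries with all genes weighted alike, so a weak shared effect could go unseen. With a replicate block, 7 members were lower and 2 higher, and over all genes 6524 were lower and 6447 higher. What depth adds to the precision was not tested.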
